A study of Mus musculus with 9 samples.

Results

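The genes described here are 10 mouse genes for plasma membrane amino acid transporters, namely Slc7a11, Slc7a5, Slc3a2, Slc7a1, Slc7a3, Slc1a4, Slc1a5, Slc38a1, Slc38a2 and Slc6a9. They were taken by gene symbol from an expression table of 22322 genes. The list rests on their function, but it was drawn up with earlier results of these data known. RNA was sequenced from 9 libraries of cultured wild type (WT) cells labelled retinal ganglion cells (RGCs), with 3 libraries in each of 3 groups. The groups were normal RGCs, aging RGCs, and the latter with USCs medium (aging RGCs + USCs medium). Normal RGCs were bought cells kept in high glucose medium with serum. Aging RGCs were the same cells made to age with D-galactose, and the third group was aging RGCs treated with USCs conditioned medium, from which the urine-derived stem cells (USCs) had been removed. All 3 groups share the purchased cell source and genotype, and the libraries of a group are replicated wells, so that p-values measure the spread between wells. USCs were grown in a medium made for urine stem cells, and an effect of that medium and one of what USCs released cannot be told apart. The whole comparison asks what D-galactose changed in these cells and what the conditioned medium changed in aging RGCs.

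Cells take up amino acids through carriers that exchange one amino acid for another or use the sodium gradient. Slc3a2 encodes the CD98 heavy chain, which binds a light chain and carries it to the cell surface. Slc7a5 encodes the light chain for leucine and other large neutral amino acids, and Slc7a11 the light chain xCT, which takes up cystine in exchange for glutamate and thereby feeds glutathione synthesis. Slc7a1 and Slc7a3 encode carriers of arginine and lysine. Slc1a4 and Slc1a5 encode exchangers of alanine, serine and other small neutral amino acids, with glutamine among the substrates of Slc1a5. Slc38a1 and Slc38a2 encode sodium-coupled carriers of glutamine and alanine, and Slc6a9 encodes a glycine carrier driven by sodium and chloride, known in the retina from glycinergic amacrine cells. When amino acids run short, the kinase GCN2 phosphorylates eIF2alpha and translation of the transcription factor ATF4 rises. ATF4 is known to induce many of these transporter genes together with genes of amino acid synthesis.

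ATF4 binds with C/EBP proteins to the amino acid response element, whose core is searched here as TGATGNAA. The antioxidant response element, bound by NRF2, is searched as TGACNNNGC. RefSeq promoter windows, from 250 bases before to 50 after the start on GRCm38.p6, were at hand for 6 of the 10 genes and comprised 9 windows. The first motif on either strand was in the windows of 2 of these 6 genes, Slc7a11 and Slc1a4, against 3.97% of all 32851 windows and 4.51% of 27025 genes. The second motif was in windows of 3 genes, Slc7a1, Slc38a2 and Slc6a9, against 12.4% of all windows and 14.0% of genes. No window held both motifs. The 2 stretches with the first motif are shown beside Slc3a2, which held neither motif in its window, and Slc38a2, the gene that later moved differently from the other members. Each is on the minus strand of GRCm38.p6, is written 5′ to 3′, and has motif matches in capitals. The stretches are chr3:50443614-50443713 for Slc7a11, chr11:20332704-20332803 for Slc1a4, chr19:8713898-8713997 for Slc3a2 and chr15:96699729-96699828 for Slc38a2.
Slc7a11: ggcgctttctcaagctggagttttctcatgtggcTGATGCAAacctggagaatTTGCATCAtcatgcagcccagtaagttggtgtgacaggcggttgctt
Slc1a4: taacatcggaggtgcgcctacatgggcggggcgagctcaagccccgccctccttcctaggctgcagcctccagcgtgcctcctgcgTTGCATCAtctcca
Slc3a2: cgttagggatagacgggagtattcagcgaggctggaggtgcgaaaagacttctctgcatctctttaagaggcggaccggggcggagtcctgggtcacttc
Slc38a2: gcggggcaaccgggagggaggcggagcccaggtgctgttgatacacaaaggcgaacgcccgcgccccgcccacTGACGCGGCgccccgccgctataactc
In Slc7a11 the motif was present on the printed strand at bases -66 to -59 from the start and on the opposite strand at -47 to -40, 11 bases apart. In Slc1a4 it was on the opposite strand and spanned bases -4 to 4. A match describes these letters and does not show that a factor was bound.

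Levels are given as FPKM, reads scaled by transcript length and by the size of the library, as the authors deposited them. Fold changes and tests are from edgeR on the deposited expected counts, with p-values adjusted over 12145 genes. A gene passed at an adjusted p under 0.05, and a differentially expressed gene (DEG) also changed by 1 or more on the log2 scale. Errors of log2 fold changes are standard errors (SE). Of the 10 genes, 9 passed the low-count filter, and Slc7a3 did not. In bulk RNA, fewer cells with a transcript and less of it per cell cannot be told apart.

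The libraries held 18189610 to 22342283 counts. In normal RGCs the 10 genes took 0.306% to 0.319% of all counts. Their share was 0.194% to 0.198% in aging RGCs and 0.219% to 0.221% with USCs medium. The label of the cells was checked against RGC markers, of which Pou4f2, Pou4f3 and Atoh7 had 0 counts in all 9 libraries and Thy1 had 0 or 1. Of the same list, Rbpms had 897 to 1422 counts, Nefl 313 to 1392 and Isl1 215 to 437, and these 3 made up most of the summed level. The summed level of the 12 RGC markers was 139 to 150 CPM (counts scaled to the library size) in the normal group, 99.2 to 103 in the aging group and 75.4 to 83.5 with USCs medium. Of 4 RGC markers tested, 3 were lower in aging than in normal RGCs and 1 did not pass. With the medium only 1, Nefl, was lower than in aging RGCs (log2 fold change -1.15, adjusted p = 3.99e-13), and 3 did not pass. The summed level of 12 macrophage markers was 65.0 to 74.9, 52.3 to 57.3 and 33.2 to 57.9 CPM, with replicate 3 of the medium group at the top of its range. Of the 9 macrophage markers tested, 6 were lower in aging than in normal RGCs, all of them DEGs. Mrc1 was the 1 that was higher (log2 fold change 0.49, adjusted p = 0.0184), and 2 did not pass. Cd68, the highest of the list in level, was among these 2 (0.10, adjusted p = 0.237). Its means were 38.6, 41.5 and 31.3 CPM in the 3 groups. Lyz2 had 522, 210 and 265 counts in normal RGCs, 118, 23 and 38 in aging RGCs, and 45, 20 and 241 with the medium. The 3 genes of C1q had 0 counts in the 3 libraries of aging RGCs and in replicates 1 and 2 of the medium group. In normal RGCs 10 mesenchymal markers summed to 3136 to 3230 CPM and 10 epithelial markers to 1047 to 1141 CPM. Of 6 mesenchymal markers tested, 5 were lower in aging than in normal RGCs and 1, Vim, was higher (log2 fold change 0.24, adjusted p = 1.32e-07). With the medium 3 were lower than in aging RGCs and 3, Vim among them, did not pass. Mean levels in the 3 groups were 1002, 653 and 465 CPM for Fn1, and 1695, 2006 and 1970 CPM for Vim, the highest of the list. Of 4 epithelial markers tested, 1, Krt8, was higher and 2 were lower in aging than in normal RGCs. Mean levels in the 3 groups were 410, 560 and 714 CPM for Krt8. They were 365, 274 and 258 CPM for Krt19, and 321, 252 and 281 CPM for Krt18. Over all genes, 23% were lower and 23.6% higher in aging than in normal RGCs, and 1.56% were DEGs with lower expression. Against aging RGCs, 26% of all genes were lower with the medium. Without replicate 3 of the medium group, 8 members were higher and 1 was lower with the medium than in aging RGCs. Leaving it out cannot probe the comparison of aging with normal RGCs, as that library is in neither group. There 9 members remained lower. The part of these cell markers in the results below was not tested.

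In aging RGCs, all 9 tested transporter genes were lower than in normal RGCs, and none was higher. Among all genes tested, 23% were lower and 23.6% higher in this comparison. The strongest decrease was that of the cystine transporter gene Slc7a11, which fell 3.45-fold, and the weakest that of Slc38a1, which fell 1.13-fold. The median log2 fold change of the 9 genes was -0.92, beside 0.0018 over all genes tested. Of the 9, 4 were DEGs (Slc7a11, Slc6a9, Slc1a4 and Slc7a5), where 1.56% of all genes were DEGs with lower and 1.09% with higher expression. For each of the 9, every aging library was below every normal library on CPM, and 53% of all genes had such a separation in either direction.

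With USCs medium, 8 of the 9 tested genes were higher than in aging RGCs and 1, Slc38a2, was lower. Of all genes, 27.1% were higher and 26% lower. Slc7a11 was the one DEG among them, against 1.24% of all genes that were DEGs with higher and 4.21% with lower expression. The median log2 fold change was 0.41, beside -0.0067 over all genes. For all 9 genes the 2 groups did not overlap on CPM, which holds for 59.8% of all genes. Because the aging libraries enter both comparisons, the values of the 2 comparisons are given side by side below and not as independent evidence.

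Against normal RGCs, 7 of the 9 genes were lower in aging RGCs + USCs medium, and Slc1a5 and Slc38a1 did not pass the test. In this comparison 29.9% of all genes were lower and 30.6% higher. Slc6a9 was the one DEG, beside 5.24% of all genes that were DEGs with lower and 1.47% with higher expression. On CPM the groups did not overlap for 7 of the 9, and for 63.8% of all genes. On FPKM Slc38a1 did not overlap either, with 72.9 to 74.8 with the medium and 76.2 to 77.8 in normal RGCs. The median log2 fold change was -0.53, beside -0.013 over all genes.

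**Figure D1:**
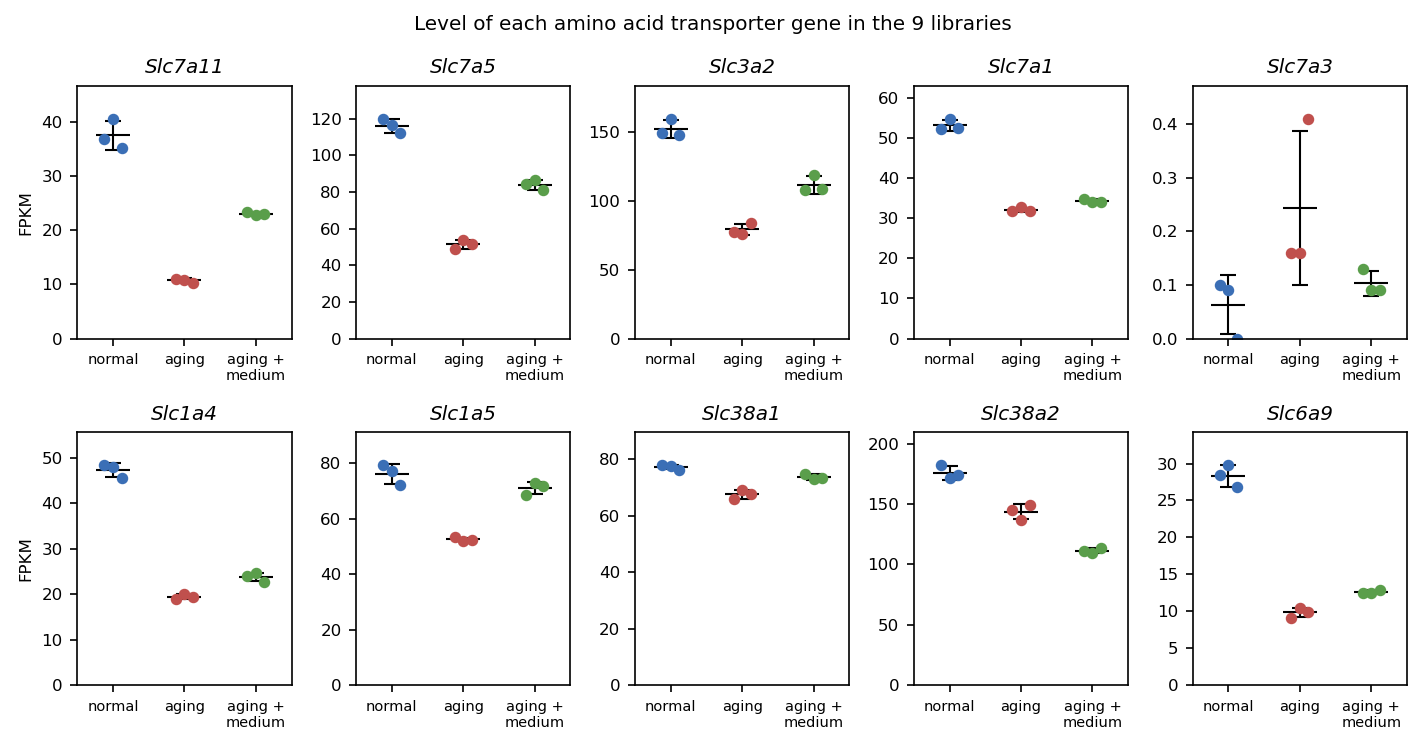
Level of each transporter gene (FPKM, each vertical axis starting at 0) by group, with USCs medium at the right. Points are the 3 libraries of a group, and the bars give mean and SD. In 9 of the 10 panels the 3 aging points lie below all normal points, Slc38a2 has its lowest points with the medium, and Slc7a3 is below 0.5 FPKM in every library.

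The heavy chain gene Slc3a2 and the light chain genes Slc7a5 and Slc7a11 changed in the same direction in each comparison. Slc7a6, a further light chain gene described below, did not pass in any comparison. Slc3a2, the CD98 heavy chain on chromosome 19, had 149, 159 and 148 FPKM in normal RGCs, 77.6, 75.9 and 83.8 in aging RGCs, and 107, 119 and 108 with USCs medium. The medium values lay between the other groups, without overlap. Its level was 1.90-fold lower in aging RGCs (log2 fold change -0.92, SE 0.041, adjusted p = 8.25e-17). With the medium it rose (log2 fold change 0.58, SE 0.041, adjusted p = 2e-12) and remained below normal RGCs (-0.34, SE 0.040, adjusted p = 2.38e-08).

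Slc7a5, the light chain gene for large neutral amino acids on chromosome 8, had 120, 116 and 112 FPKM in normal RGCs. It was at 49.0, 53.9 and 51.6 FPKM in aging RGCs, and at 84.6, 86.5 and 81.2 with the medium. These 3 ranges were widely separated. The change in aging RGCs was a 2.22-fold decrease (log2 fold change -1.15, SE 0.038, adjusted p = 1.17e-19). The medium raised it 1.72-fold (0.78, SE 0.038, adjusted p = 6.22e-16), to a level that was still 1.29-fold under normal RGCs (-0.37, SE 0.037, adjusted p = 1.19e-09).

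Slc7a11, the cystine and glutamate exchanger gene on chromosome 3, whose promoter stretch above held the first motif on each strand, had the largest log2 fold change of the 9 genes in aging RGCs and, against aging RGCs, with the medium. Its FPKM was 36.8, 40.6 and 35.3 in normal RGCs, 11.03, 10.89 and 10.34 in aging RGCs, and 23.3, 22.8 and 23.1 with the medium. The aging level was 28.6% of the normal mean FPKM and the medium level 61.4%. On the counts this was a log2 fold change of -1.79 in aging RGCs (SE 0.044, adjusted p = 2.35e-22). The rise with the medium was 2.27-fold (1.18, SE 0.044, adjusted p = 1.77e-18). Medium-treated cells stayed 1.52-fold below normal RGCs (-0.61, SE 0.041, adjusted p = 3.58e-13).

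The summed FPKM of the light chain genes that pair with Slc3a2 (Slc7a5, Slc7a11, Slc7a6, Slc7a7, Slc7a8 and Slc7a10) was set against that of Slc3a2 in each library. The ratio was 1.26 ± 0.044 in normal RGCs, 1.29 ± 0.085 in aging RGCs and 1.30 ± 0.065 with the medium (SD, n = 3 each). The 3 ranges overlapped, and exact permutation tests gave p = 0.5, 1 and 0.4 for aging against normal, medium against aging and medium against normal. The split among light chains moved. Slc7a11 was 0.323 ± 0.022 of Slc7a5 in normal RGCs, 0.209 ± 0.014 in aging RGCs and 0.274 ± 0.011 with the medium, with no overlap between any 2 groups. The exact permutation p was 0.1 in each of these comparisons, which is the smallest that 3 against 3 libraries can give, and 0.136 after adjustment over the 15 ratio tests made. Slc7a6, a light chain gene for cationic and neutral amino acids, made up nearly all of the remaining light chain signal, with 34.9 to 40.1 FPKM in the normal group, 38.5 to 41.1 in the aging group and 36.1 to 38.1 with the medium. It did not pass in any of the 3 comparisons, with log2 fold changes of 0.096 (adjusted p = 0.109), -0.093 (adjusted p = 0.114) and 0.0033 (adjusted p = 0.959).

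**Figure D2:**
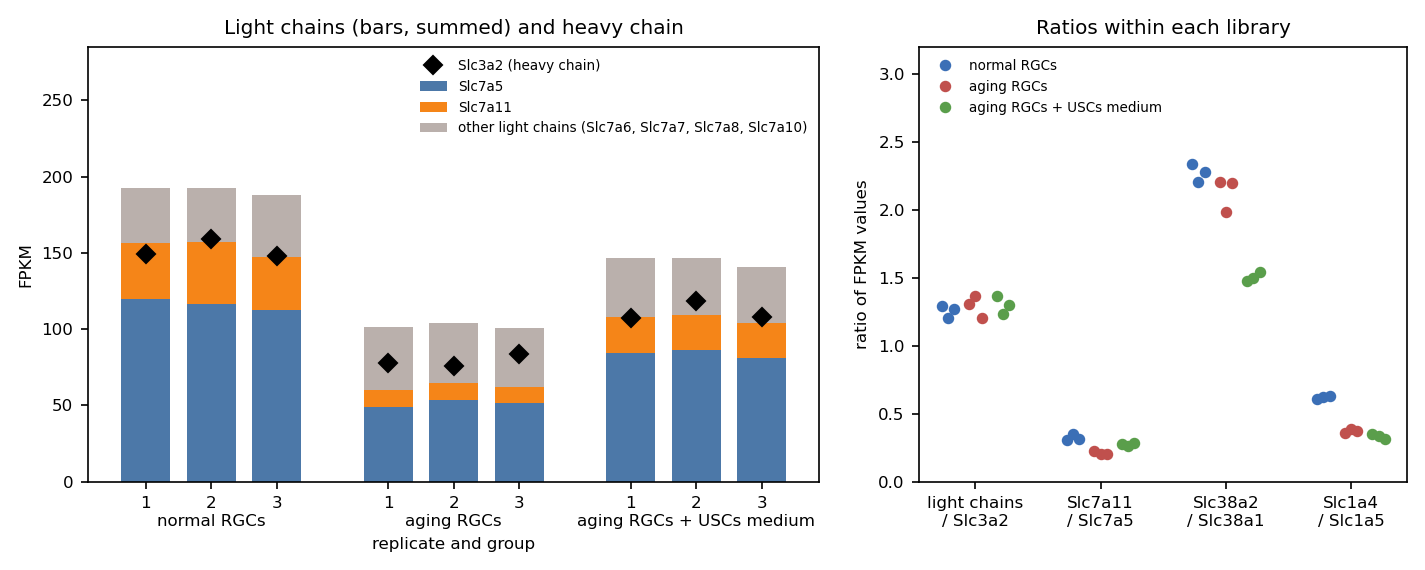
Left, FPKM of the light chain genes, stacked, and of the heavy chain gene Slc3a2 (diamonds) in each library. Right, ratios of FPKM values within each library by group. The ratio of light chains to Slc3a2 lies between 1.202 and 1.369 in the 9 libraries, while the Slc38a2 to Slc38a1 ratio is 1.48 to 1.55 with the medium and 1.98 to 2.34 in the other 6 libraries.

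Of the carriers of cationic amino acids, Slc7a1 was well expressed and Slc7a3 was not. Slc7a1, on chromosome 5, had 52.2, 54.8 and 52.6 FPKM in normal RGCs, 31.8, 32.7 and 31.8 in aging RGCs, and 34.8, 34.2 and 33.9 with the medium. The medium group sat just above the aging group and far below the normal group. The decrease in aging RGCs was 1.62-fold (log2 fold change -0.69, SE 0.034, adjusted p = 9.42e-16). The increase with the medium was 1.12-fold (0.16, SE 0.035, adjusted p = 0.000351). It did not pass without TMM factors, the edgeR scaling of libraries (0.079, adjusted p = 0.0537). Against normal RGCs the gene was 1.45-fold lower (-0.53, SE 0.034, adjusted p = 1.05e-13).

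Slc7a3, on chromosome X, had expected counts of 5, 4 and 0 in normal RGCs, 8, 7 and 22 in aging RGCs, and 6, 4 and 4 with the medium. Its highest FPKM was 0.41, in replicate 3 of the aging group. When the filter on low counts was dropped, it was higher in aging than in normal RGCs (log2 fold change 2.14, adjusted p = 0.0106), opposite to the 9 other genes. That value rests on counts of 22 and below. Its changes with the medium did not pass there (-1.40 against aging RGCs, adjusted p = 0.0862, and 0.74 against normal RGCs, adjusted p = 0.512).

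The neutral amino acid exchanger genes Slc1a4 and Slc1a5 were both lower in aging RGCs and higher with the medium, with the larger log2 fold change in aging RGCs for Slc1a4. Slc1a4, on chromosome 11, with the first motif across its start, had 48.4, 47.9 and 45.5 FPKM in normal RGCs, 18.96, 19.98 and 19.37 in aging RGCs, and 23.9, 24.6 and 22.8 with the medium. The medium values lay close above the aging values, as the aging mean was 41.1% of the normal mean FPKM and the medium mean 50.3%. The decrease in aging RGCs was 2.40-fold (log2 fold change -1.26, SE 0.042, adjusted p = 1.18e-19), and the increase with the medium 1.29-fold (0.37, SE 0.044, adjusted p = 5.4e-08). Medium-treated cells were 1.86-fold below normal RGCs (-0.90, SE 0.041, adjusted p = 7.03e-17).

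Slc1a5, on chromosome 7, had 79.3, 77.2 and 72.3 FPKM in normal RGCs, 53.3, 52.0 and 52.4 in aging RGCs, and 68.6, 72.8 and 71.7 with the medium. The aging values were the lowest, and the medium and normal values overlapped. It was 1.43-fold lower in aging RGCs (log2 fold change -0.52, SE 0.038, adjusted p = 5.37e-12) and 1.43-fold higher with the medium than in aging RGCs (0.51, SE 0.038, adjusted p = 4.43e-12). The difference between medium-treated and normal RGCs was -0.0024 with a 95% confidence interval of -0.077 to 0.073 (adjusted p = 0.96). Without TMM factors this difference was -0.10 and passed (adjusted p = 0.0191). Slc1a4 amounted to 0.620 ± 0.0097 of Slc1a5 in normal RGCs, 0.370 ± 0.014 in aging RGCs and 0.335 ± 0.016 with the medium (FPKM ratio, SD, n = 3 each, exact permutation p = 0.1 for each comparison, the smallest possible).

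Slc38a1 and Slc38a2 lie next to each other on chromosome 15, with 44478 bases between them on GRCm38, and encode carriers of similar substrates. In aging RGCs both were lower, by less than any other tested member, and with the medium they went in opposite directions. Slc38a1 had 77.8, 77.7 and 76.2 FPKM in normal RGCs, 65.7, 69.2 and 67.6 in aging RGCs, and 74.8, 72.9 and 73.3 with the medium. It was 1.13-fold lower in aging RGCs (log2 fold change -0.17, SE 0.030, adjusted p = 3.18e-05) and 1.11-fold higher with the medium (0.15, SE 0.030, adjusted p = 0.000135). Against normal RGCs the difference was -0.021 (95% confidence interval -0.083 to 0.040, adjusted p = 0.557). Without TMM factors it was -0.12 and passed (adjusted p = 0.000832).

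Slc38a2, a known target of the amino acid response, had 182, 171 and 174 FPKM in normal RGCs, 145, 137 and 149 in aging RGCs, and 111, 109 and 113 with the medium. The groups formed 3 separate steps, with the medium-treated cells lowest. The first step, from normal to aging RGCs, was a log2 fold change of -0.27 (SE 0.032, adjusted p = 9.99e-08). The second, from aging RGCs to the medium, was one of -0.29 (SE 0.033, adjusted p = 1.68e-08). Together they left Slc38a2 1.48-fold below normal RGCs (-0.56, SE 0.033, adjusted p = 1.69e-14). The FPKM ratio of Slc38a2 to Slc38a1 was 2.27 ± 0.066 in normal RGCs, 2.13 ± 0.129 in aging RGCs and 1.51 ± 0.034 with the medium. Exact permutation tests gave p = 0.2 for aging against normal RGCs and p = 0.1, the smallest possible, for the medium against each other group.

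Slc6a9, the glycine transporter gene on chromosome 4, had 28.4, 29.8 and 26.8 FPKM in normal RGCs, 9.14, 10.4 and 9.95 in aging RGCs, and 12.5, 12.4 and 12.9 with the medium. Its decrease in aging RGCs was the second largest of the 9, after Slc7a11, and the medium values lay close above the aging values. The decrease was 2.87-fold (log2 fold change -1.52, SE 0.055, adjusted p = 6.97e-19). The rise with the medium was 1.33-fold (0.41, SE 0.059, adjusted p = 1.09e-06), and the gene stayed 2.16-fold below normal RGCs (-1.11, SE 0.052, adjusted p = 1.91e-16). Of its exonic bases, 27.8% also belong to Ccdc24, 9.94% to the noncoding gene Gm17114 and 0.895% to B4galt2, all on the opposite strand, and whether counting used the strand is not stated in the labels or the methods. Ccdc24 had expected counts of 9.55 to 34.6 and B4galt2 371 to 525, where Slc6a9 had 508 to 1947. The expected counts of Slc6a9 were not whole in any of the 9 libraries.

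**Figure D3:**
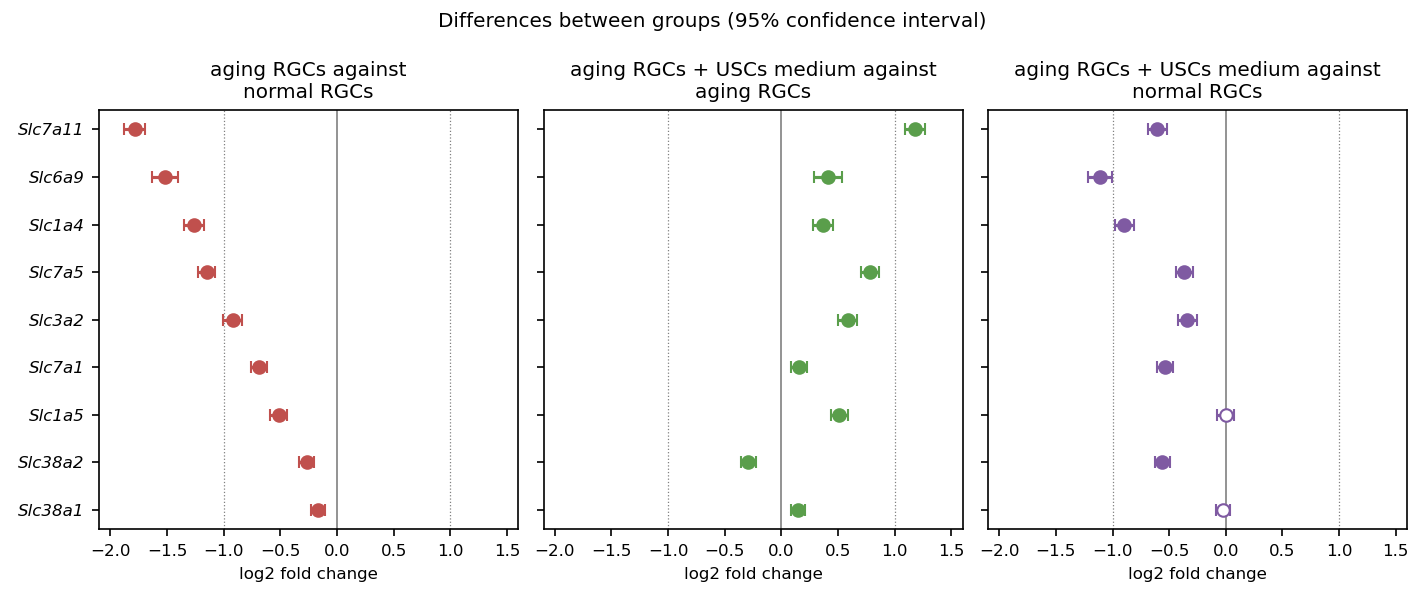
log2 fold changes of the 9 tested genes in the 3 comparisons (points) with 95% confidence intervals (bars), ordered by the change in aging RGCs. Filled points passed at an adjusted p under 0.05, and dotted lines mark an absolute log2 fold change of 1. Slc38a2 is the one gene left of 0 in the middle panel, and Slc1a5 and Slc38a1 are open in the right panel.

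The order of the levels changed between the groups. In normal RGCs the mean FPKM fell in the order Slc38a2, Slc3a2, Slc7a5, Slc38a1, Slc1a5, Slc7a1, Slc1a4, Slc7a11, Slc6a9 and Slc7a3, and among neighbours Slc38a1 and Slc1a5 overlapped. In aging RGCs Slc38a1 stood above Slc1a5 and Slc7a5, which overlapped each other, and Slc7a11 overlapped Slc6a9 near the bottom. With the medium Slc3a2 and Slc38a2 overlapped at the top, and Slc1a4 overlapped Slc7a11. The sum of the 10 FPKM values was 764 ± 18.3 in normal RGCs, 467 ± 8.18 in aging RGCs and 545 ± 7.89 with the medium (SD, n = 3 each, exact permutation p = 0.1 in each comparison, the smallest possible). Slc38a2 made up 22.1% to 23.5% of that sum in the normal group, 29.7% to 31.4% in the aging group and 19.73% to 20.97% with the medium. Levels of different genes depend on the transcript length used. With CPM over the exonic length of the gene in place of FPKM, Slc7a5 ranked 1 in normal RGCs, Slc38a2 ranked 2 and Slc3a2 ranked 3. On that scale Slc38a1, with 17236 exonic bases, stood below Slc1a5 (4173 bases) and Slc7a5 (3708 bases) in normal and aging RGCs.

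Profiles over the 9 libraries were compared as Pearson's r of log2 CPM, which is a description, since all libraries of a group share their treatment. Among Slc7a11, Slc7a5, Slc3a2, Slc1a5 and Slc38a1, the 10 pairs had r of 0.924 to 0.993. Among Slc7a1, Slc1a4 and Slc6a9, r was 0.989 to 0.994. Both sets were formed after the values were seen. Slc38a2 had r of -0.016 to 0.699 with the 8 other tested members. Of the 10862 genes above the level set for this comparison (average log2 CPM 1 or more), those closest to Slc3a2 were Trib3 (r = 0.995) and Ddit4 (0.995), which encode stress response proteins. Closest to Slc7a5 were Iars (0.996) and Pck2 (0.995), and closest to Slc1a5 were Mars1 (0.995) and Numbl (0.995), where Iars and Mars1 encode tRNA synthetases. The 2 closest to Slc1a4 were Ubr2 (0.997) and Gdf15 (0.995), those to Slc7a1 Kif21b (0.996) and Hid1 (0.993), and those to Slc6a9 Tcf24 (0.997) and Sbf2 (0.996). Slc7a11 was closest to Arl14ep (0.996), Slc38a1 to Pdzd8 (0.991) and Klf5 (0.987), and Slc38a2 to the collagen gene Col14a1 (0.997) and Fndc3b (0.993).

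The other plasma membrane amino acid transporters were mostly low in these cells. Of 35 further genes, 11 passed the low-count filter, and the other 24 had at most 0.21 FPKM in any library. In aging RGCs 2 of the 11 were higher, 2 were lower and 7 did not pass. With the medium 1 was higher, 5 were lower and 5 did not pass against aging RGCs, while 5 were lower and 6 did not pass against normal RGCs. Over all genes, 23.6% were higher and 23% lower in aging RGCs. The shares with the medium were 27.1% and 26% against aging RGCs, and 30.6% and 29.9% against normal RGCs. The median log2 fold changes of the 11 were 0.12, -0.30 and -0.42 in the 3 comparisons, beside -0.92, 0.41 and -0.53 for the 9 genes above.

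Slc6a6 and Slc7a6 had the highest levels of these 11, 34.9 FPKM or more in every library, Slc36a4 had 5.05 to 13.1 FPKM, and the other 8 had at most 5.21 FPKM. Slc6a6, the taurine transporter gene, had 102, 92.5 and 104 FPKM in normal RGCs, 88.5, 90.2 and 95.1 in aging RGCs, and 64.0, 62.0 and 69.8 with the medium. It did not pass in aging against normal RGCs (log2 fold change -0.045, adjusted p = 0.435) and was lower with the medium than in aging RGCs (-0.46, SE 0.046, adjusted p = 1.73e-09). The DEGs of this list were low in level. Slc1a7, a glutamate transporter gene of the retina, had 0.48 to 1.99 FPKM and followed the members, with log2 fold changes of -1.43 in aging RGCs (SE 0.223, adjusted p = 5.77e-06) and 1.17 with the medium (SE 0.230, adjusted p = 9.78e-05). Slc6a17, a gene for a carrier of neutral amino acids known from synaptic vesicles, had 0.42 to 1.43 FPKM and went the other way, with 0.77 in aging RGCs (SE 0.148, adjusted p = 9.22e-05) and -1.31 with the medium (SE 0.158, adjusted p = 5.84e-08). Its calls are part of the counts given for this plasma membrane list.

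The transporter genes were set beside 27 other known genes of the amino acid response (ATF4 targets), of which 26 were tested. In aging RGCs all 26 were lower, 15 of them DEGs, with a median log2 fold change of -1.09. Of all genes, 23% were lower in aging RGCs, and 1.56% were DEGs with lower expression. With the medium 27.1% of all genes were higher than in aging RGCs, and 1.24% were DEGs with higher expression. The largest decreases were those of Fgf21 (-3.71, SE 0.237), a secreted metabolic hormone, Chac1 (-2.28, SE 0.098), which degrades glutathione, Cth (-1.88, SE 0.104), which makes cysteine, Gpt2 (-1.83, SE 0.047), an alanine aminotransferase, and Trib3 (-1.78, SE 0.057), with adjusted p of 3.16e-13, 4.07e-17, 1.45e-14, 4.92e-22 and 6.15e-20. With the medium 25 of the 26 were higher than in aging RGCs and 1, Cbs, was lower (-0.58, SE 0.146, adjusted p = 0.00147), with a median of 0.65. The 7 DEGs were led by Cth (1.78, SE 0.106), Asns (1.37, SE 0.038), the asparagine synthetase, Psph (1.28, SE 0.054), of serine synthesis, Chac1 (1.17, SE 0.107) and Trib3 (1.13, SE 0.059), with adjusted p of 4.38e-14, 2.93e-21, 2.77e-17, 3.85e-10 and 2.85e-15.

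Against normal RGCs 2 of these 26 genes were higher with the medium, 20 were lower and 4 did not pass, with a median of -0.43. Of all genes, 30.6% were higher and 29.9% lower in this comparison. Asns was among the 4 (-0.045, SE 0.036, adjusted p = 0.278), as were Cth, Psph and Eif4ebp1. The 4 DEGs were Fgf21 (-2.66), Chac1 (-1.12), Cbs (-1.10) and Gdf15 (-1.07). Atf4 itself had log2 fold changes of -0.94 in aging RGCs (adjusted p = 2.31e-18), 0.71 with the medium (adjusted p = 1.37e-15) and -0.24 against normal RGCs (adjusted p = 1.19e-06).

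Of the 4 genes for kinases that phosphorylate eIF2alpha, 1 was higher and 1 lower in aging RGCs. With the medium 2 were higher than in aging RGCs, and none was a DEG. Over all genes, 23.6% were higher and 23% lower in aging RGCs, and 27.1% were higher with the medium. Eif2ak4, which encodes GCN2, had a log2 fold change of 0.16 with the medium against aging RGCs (SE 0.048, adjusted p = 0.00594). That of Eif2ak1, the other one higher there, was 0.21 (SE 0.061, adjusted p = 0.00472). Eif2ak4 did not pass in aging against normal RGCs (-0.022, adjusted p = 0.742). With the medium it was above normal RGCs (0.14, adjusted p = 0.013). Against aging RGCs, the rises of members with the medium ran from 0.15 for Slc38a1 and 0.16 for Slc7a1 to 1.18 for Slc7a11, and Slc38a2 fell. The activity of these kinases was not measured.

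**Figure D4:**
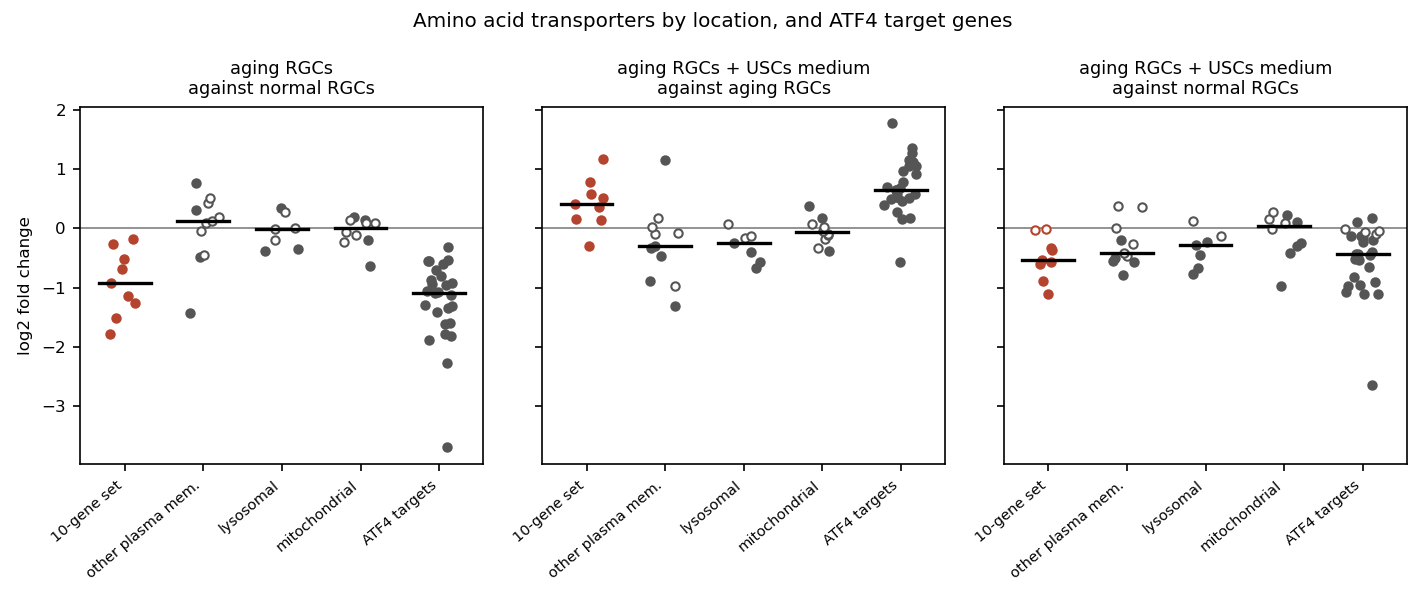
log2 fold changes of the tested genes of 5 lists in the 3 comparisons. Points are genes, filled where they passed at an adjusted p under 0.05, red for the 9 tested members of the 10-gene set, and black lines are medians. In aging RGCs the members and the ATF4 targets lie below 0 and the lysosomal and mitochondrial carriers around it.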

How the data were processed

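RNA-seq of 3 normal RGC, 3 aging RGC and 3 aging RGC + USCs medium libraries, grouped by their labels, was analysed. For each of 22322 genes the authors deposited an expected count, an estimated and unnormalized number of reads, and FPKM, in which reads are divided by transcript length and library size. The submitters' processing notes name mm10, while aligner, counting program and strand setting are not stated there or in the paper's methods. Expected counts were rounded, as 6.92% to 7.38% of the values in a library were not whole, and tested with edgeR 4.0.16 in R 4.3.3 (filterByExpr, TMM factors of 0.9562 to 1.034, quasi-likelihood F test, 1 mean per group over all 9 libraries, Benjamini-Hochberg adjustment over 12145 genes). The biological coefficient of variation was 3.78%. Replicates of a group differed by more than sampling noise. The procedure was tested on simulated data.

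All 10 members were named. RGC, macrophage, mesenchymal and epithelial markers were given as summed levels, the last 2 in normal RGCs only. Single markers were named after their values were seen. Glia and photoreceptor markers are not reported here. From each other list, up to 5 genes per comparison past an adjusted p of 0.05 and an absolute log2 fold change of 1 were named, largest first, and for each tested member the 2 genes with the closest profile, of which 1 is not reported here. Other genes (Slc7a6, Slc6a6, Asns, Cth, Psph and Eif4ebp1 against normal RGCs, Cbs, Atf4, Eif2ak1, Eif2ak4 and those in the closing section) were chosen after their values were seen. The members and the lists were chosen with earlier results of these data known. Ratios and sums of FPKM were compared by two-sided exact permutation tests. Alternatives were DESeq2 1.42.0, limma 3.58.1 on log2(FPKM + 1) and on log2(FPKM + 0.1), other scaling, other low-count filters, 2 groups only, a replicate block and each library left out. Coordinates are from GENCODE M21 on GRCm38, in which 22267 identifiers matched, and promoter windows are from RefSeq on GRCm38.p6.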

Additional observations from a re-analysis of the deposited data

How the results depend on the processing

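Over 18 alternatives, 162 values of the 9 tested members were recomputed per comparison. For aging against normal RGCs all 162 kept their call, for medium-treated against aging RGCs 161 did, and against normal RGCs 160 did, and no called value changed sign. Slc1a5 against normal RGCs, which had not passed, changed sign under 5 of the 18 and ranged from -0.10 to 0.023. The 3 exceptions came without TMM factors and stand beside Slc7a1, Slc1a5 and Slc38a1. That scaling moved the median log2 fold change of all genes to -0.085 and -0.113 in the medium comparisons, and the higher and lower genes to 2346 and 4199 against aging RGCs (3292 and 3154 with TMM) and to 2593 and 4889 against normal RGCs (3716 and 3634 with TMM).

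With no low-count filter 1 member, Slc7a3, was higher in aging RGCs. The count of other plasma membrane transporters higher in aging RGCs was 1 under both limma settings and 1 to 3 when a library was left out, with 1 without aging RGCs replicate 3. The count higher with the medium than in normal RGCs was 0 to 1, with 1 without normal RGCs replicate 2. With the fold-change threshold of a DEG, members lower in aging RGCs numbered 4, and other transporters 0 higher and 1 lower. With the medium against aging RGCs there were 1 member higher and 0 lower, and other transporters 1 higher and 1 lower. Against normal RGCs 1 member and 0 other transporters were lower. Libraries with the same number had deviations with r of -0.037 to 0.048, which gives no pairing by number, and with a replicate block the members lower in aging RGCs numbered 9, as without it. In this small design 3 libraries per group limit the exact tests to p = 0.1, and the lowest counts limit Slc7a3.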

Other observations

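Genes for amino acid carriers of other membranes were counted in the same fit. Over all genes tested, 23.6% were higher and 23% lower in aging than in normal RGCs. With the medium 27.1% were higher and 26% lower than in aging RGCs. Of 7 tested lysosomal transporter genes, 1 was higher, 2 were lower and 4 did not pass in aging RGCs, and with the medium 4 were lower than in aging RGCs and 3 did not pass. The 4 that fell with the medium were Ctns, the lysosomal cystine exporter (log2 fold change -0.67, SE 0.093, adjusted p = 6.16e-07), Slc36a1 (-0.58, SE 0.089, adjusted p = 3.48e-06), Slc38a9, an arginine sensor of mTORC1 (-0.39, SE 0.109, adjusted p = 0.00331) and Mfsd12 (-0.24, SE 0.099, adjusted p = 0.0415). Of 10 mitochondrial carrier genes 2 were higher, 2 lower and 6 not passed in aging RGCs, and 2, 1 and 7 with the medium. The 3 called with the medium were Sfxn3, of the sideroflexin family, which was lower (-0.39, SE 0.055, adjusted p = 1.17e-06), Slc25a38, a glycine carrier, which was higher (0.38, SE 0.143, adjusted p = 0.026), and Sfxn1, a serine carrier, which was higher (0.18, SE 0.043, adjusted p = 0.000833).

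Of 9 tested genes of glutathione synthesis and NRF2 targets, 2 were higher and 5 lower in aging RGCs. Against aging RGCs, 3 were higher and 1 lower with the medium. The shares of all genes were 23.6% higher and 23% lower in the first comparison, and 27.1% higher and 26% lower in the second. Gclc, the catalytic subunit of the enzyme that joins glutamate and cysteine, was lower in aging RGCs (-0.14, SE 0.052, adjusted p = 0.0287), higher with the medium than in aging RGCs (0.77, SE 0.051, adjusted p = 4.39e-13) and higher than in normal RGCs (0.63, SE 0.050, adjusted p = 1.09e-11), whereas Slc7a11 stayed below normal RGCs with the medium. Nqo1, a classical NRF2 target, fell with the medium (-0.50, SE 0.051, adjusted p = 3.12e-09). The same shares of all genes stand beside the 18 tested genes of mTORC1 and its amino acid sensors. Of these 18, 6 were higher and 6 lower in aging RGCs, and 4 were higher and 9 lower with the medium than in aging RGCs. Rragd, a GTPase that recruits mTORC1 to lysosomes, was the one DEG. Its log2 fold change with the medium was -1.24 against aging RGCs (SE 0.118, adjusted p = 8.36e-10) and -1.34 against normal RGCs (SE 0.116, adjusted p = 6.77e-11).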
